A study of Homo sapiens with 8 samples.

Results

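Neural crest transcription factors were followed in RD-ES and SK-N-MC, a pair of cell lines established from Ewing sarcoma, by the mRNA level of SOX4, SOX5, SOX6, SOX8, SOX9, SOX11, MSX1, MSX2, PAX3 and TFAP2A. These 10 genes were chosen by symbol from the 60332 rows of the gene table, and each symbol had 1 row. The values are FPKM, a read number scaled to transcript length and library size, so that levels can be set against each other between genes. With 2 control and 2 eKD2 libraries for each line, 8 libraries were measured in 4 groups. The eKD2 cells were infected with a lentivirus carrying dCas9-KRAB, a Cas9 that cannot cut and that brings the KRAB repressor to DNA, directed to the GGAA repeat of the LOXHD1 enhancer. By the sample labels the control cells received the same virus without a target, whereas the study calls its controls parental. The study describes its knockdown cells as polyclonal pools. Infection was at a multiplicity of 10, the cells were held in puromycin at 1 µg/ml for 3 days and were used no later than 5 passages afterwards. The study calls the libraries of a group biological duplicates, and the sources do not say whether they came from separately infected cultures, so the p-values measure the spread between these libraries.

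The neural crest is an embryonic cell population that leaves the border of the neural plate and gives rise to peripheral neurons and glia, pigment cells and much of the bone and cartilage of the face. It is one of the proposed origins of Ewing sarcoma, a tumor driven by a fusion of EWSR1 to an ETS transcription factor, most often FLI1. MSX1, MSX2, PAX3 and TFAP2A act early, as specifiers of the neural plate border. The SOX genes encode HMG box factors of several groups. SOX4 and SOX11 (SOXC group) work in progenitors and immature neurons, SOX5 and SOX6 (SOXD group) lack an activation domain and serve as partners of other SOX proteins, and SOX8 and SOX9 (SOXE group, together with SOX10) specify the crest itself and, in the case of SOX9, cartilage.

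LOXHD1, the target of the knockdown, had 21.4 and 21.2 FPKM against 1.04 and 1.02 FPKM after silencing in RD-ES, and 159 and 169 against 11.0 and 11.95 FPKM in SK-N-MC. It fell by 3.46 on the log2 scale with eKD2 in RD-ES (limma adjusted p = 0.00011) and fell by 3.73 with eKD2 in SK-N-MC (adjusted p = 3.7e-05), so the libraries carried the knockdown their labels state. All 9 Ewing sarcoma markers examined were above the filter on low values, among them CD99 and NKX2-2. In SK-N-MC control 3 of these were called higher and 3 lower than in RD-ES control (limma), against 57.8% of all rows. NR0B1 had means of 3.08 FPKM (RD-ES control) and 53.1 FPKM (SK-N-MC control), and CD99 had 576 and 209 FPKM. Markers of other cell types also differed between the lines. The summed level of 8 fibroblast markers was 83.5 to 110 FPKM over the RD-ES libraries and 443 to 457 FPKM over those of SK-N-MC. The collagen gene COL1A2, which had the largest fold among them, had means of 0.529 FPKM (RD-ES control) and 86.1 FPKM (SK-N-MC control). ACTA2 went the other way (20.1 against 1.46 FPKM), as did the means of PDGFRB (10.9 against 6.47 FPKM), which was not called. For 8 Schwann cell and melanocyte markers the sums were 4.88 to 7.0 FPKM (RD-ES) and 19.8 to 22.7 FPKM (SK-N-MC), most of the latter from S100B, with PMP2, TYR and MLANA listed at 0 in every library. PMEL went the other way, with means of 4.02 FPKM (RD-ES control) and 1.84 FPKM (SK-N-MC control, limma adjusted p = 0.023). The 5 leukocyte markers summed to 0.581 to 1.62 FPKM (RD-ES) and 20.1 to 22.9 FPKM (SK-N-MC), where PTPRC made up most of it and CD3E was listed at 0, and 6 neuron markers summed to 46.8 to 55.5 and 21.2 to 25.4 FPKM. Of the neuron markers, SYT1 and ELAVL4 were lower in SK-N-MC control, whereas SNAP25 was higher (4.98 against 11.2 FPKM). The 4 skeletal muscle markers reached at most 0.150 FPKM in sum. The filter was passed by 8 of 8 fibroblast, 2 of 8 Schwann cell and melanocyte, 1 of 5 leukocyte, 3 of 6 neuron and 0 of 4 muscle markers. COL1A2 and PTPRC passed it through SK-N-MC. In SK-N-MC control 6 of the fibroblast markers were called higher and 1 lower than in RD-ES control (limma), against 57.8% of all rows called. The part of these markers in the differences between the lines given next was not tested.

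The regulatory sequence is shown for the 4 border specifiers, since MSX1 and MSX2 had opposite patterns between the lines and PAX3 and TFAP2A had eKD2 values on opposite sides of control in the 2 lines. Each run covers 250 bases before and 50 bases after an annotated start, 5′ to 3′ on the strand of the gene (RefSeq, GRCh38.p14), with capitals at every GGAA or its reverse complement TTCC, the core that ETS factors recognise.
MSX1: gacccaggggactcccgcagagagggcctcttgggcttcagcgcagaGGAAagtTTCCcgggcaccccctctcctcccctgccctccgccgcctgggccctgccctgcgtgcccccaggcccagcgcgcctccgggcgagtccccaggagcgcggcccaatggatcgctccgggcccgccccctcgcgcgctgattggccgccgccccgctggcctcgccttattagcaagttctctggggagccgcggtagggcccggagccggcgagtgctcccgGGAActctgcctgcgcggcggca
MSX2: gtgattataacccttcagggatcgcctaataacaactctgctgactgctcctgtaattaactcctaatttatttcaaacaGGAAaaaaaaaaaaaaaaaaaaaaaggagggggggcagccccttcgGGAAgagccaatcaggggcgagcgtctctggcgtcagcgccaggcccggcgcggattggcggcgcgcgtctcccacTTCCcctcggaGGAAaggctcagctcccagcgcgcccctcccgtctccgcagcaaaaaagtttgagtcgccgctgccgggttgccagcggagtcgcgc
PAX3: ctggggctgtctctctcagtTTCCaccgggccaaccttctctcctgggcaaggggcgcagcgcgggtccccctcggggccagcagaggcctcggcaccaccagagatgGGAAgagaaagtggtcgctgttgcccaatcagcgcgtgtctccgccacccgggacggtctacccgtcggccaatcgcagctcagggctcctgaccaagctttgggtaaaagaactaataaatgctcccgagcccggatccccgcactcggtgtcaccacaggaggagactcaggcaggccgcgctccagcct
TFAP2A: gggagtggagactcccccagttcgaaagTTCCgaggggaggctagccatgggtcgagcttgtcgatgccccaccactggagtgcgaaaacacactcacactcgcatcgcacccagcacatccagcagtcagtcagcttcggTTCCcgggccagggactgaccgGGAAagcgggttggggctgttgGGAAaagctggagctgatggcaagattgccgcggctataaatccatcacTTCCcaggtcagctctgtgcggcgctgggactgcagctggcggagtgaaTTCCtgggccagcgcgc
These windows lie at chr4:4859415-4859714 on the plus strand for MSX1, chr5:174724332-174724631 on the plus strand for MSX2, chr2:222298949-222299248 on the minus strand for PAX3 and chr6:10419610-10419909 on the minus strand for TFAP2A, which has a second annotated window that is not printed. GGAA occurs 3 times at MSX1, 4 times at MSX2, 2 times at PAX3 and 6 times at TFAP2A, against a median of 3 in 35116 promoter windows of the same length, of which 95.5% hold at least 1. None of the 4 holds the tandem GGAAGGAA, a short form of the repeat that EWSR1::FLI1 binds, which is present in 3.67% of all windows and contains the shorter motif. TAATTG, a site form bound by MSX proteins, ACAATG, bound by SOX proteins, and GCCNNNGGC, bound by TFAP2 proteins, were searched on both strands and are likewise not in these 4 windows. They are present in 7.38%, 10.8% and 23.2% of all windows. Windows were available for 7 of the 10 genes, 12 windows in all, and some of those not printed do hold these motifs. The SOX6 window at chr11:16356497-16356796 holds the tandem form 1 time and the SOX site 1 time. The SOX6 window at chr11:16738428-16738727 holds the TFAP2 site 2 times, and the other SOX6 windows hold the MSX or the SOX site. The SOX5 window holds the SOX site 2 times. The SOX4 window and the second TFAP2A window hold neither the tandem form nor any of these sites. The members lie apart in the genome (GRCh37, GENCODE annotation), with SOX4 and TFAP2A on chromosome 6, SOX11 and PAX3 on chromosome 2, MSX1 on chromosome 4, MSX2 on chromosome 5, SOX6 on chromosome 11, SOX5 on chromosome 12, SOX8 on chromosome 16 and SOX9 on chromosome 17. SOX4 and SOX11 are genes of a single exon, whereas SOX5 and SOX6 span 1033 and 773 kb.

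Both lines expressed the same families but ranked the members differently. In RD-ES, MSX1 had the highest median over the 4 libraries (32.8 FPKM), followed by SOX6 (26.2), SOX11 (24.9), PAX3 (19.6), SOX4 (7.56), TFAP2A (4.01), SOX5 (1.42), SOX8 (1.07), MSX2 (0.659) and SOX9, which was listed at 0. The ranges of MSX1 and SOX6 overlapped, as did those of SOX6 and SOX11, and all other neighbours in this order were apart. In SK-N-MC the order by median FPKM was SOX6 (49.1), SOX11 (27.5), TFAP2A (22.7), SOX4 (20.6), MSX2 (17.8), PAX3 (7.87), MSX1 (6.80), SOX8 (3.30), SOX9 (0.208) and SOX5, with a median of 0. Here the ranges overlapped between SOX11 and TFAP2A, between TFAP2A and SOX4 and between PAX3 and MSX1. SOX6 and SOX11 were therefore among the 3 highest in either line, whereas MSX1 moved from the top of the order in RD-ES to the lower end in SK-N-MC. Between replicates the coefficient of variation of the 8 members with a mean of at least 1 FPKM had a median of 6.23% and reached 21.9% for SOX6 in RD-ES control.

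**Figure D1:**
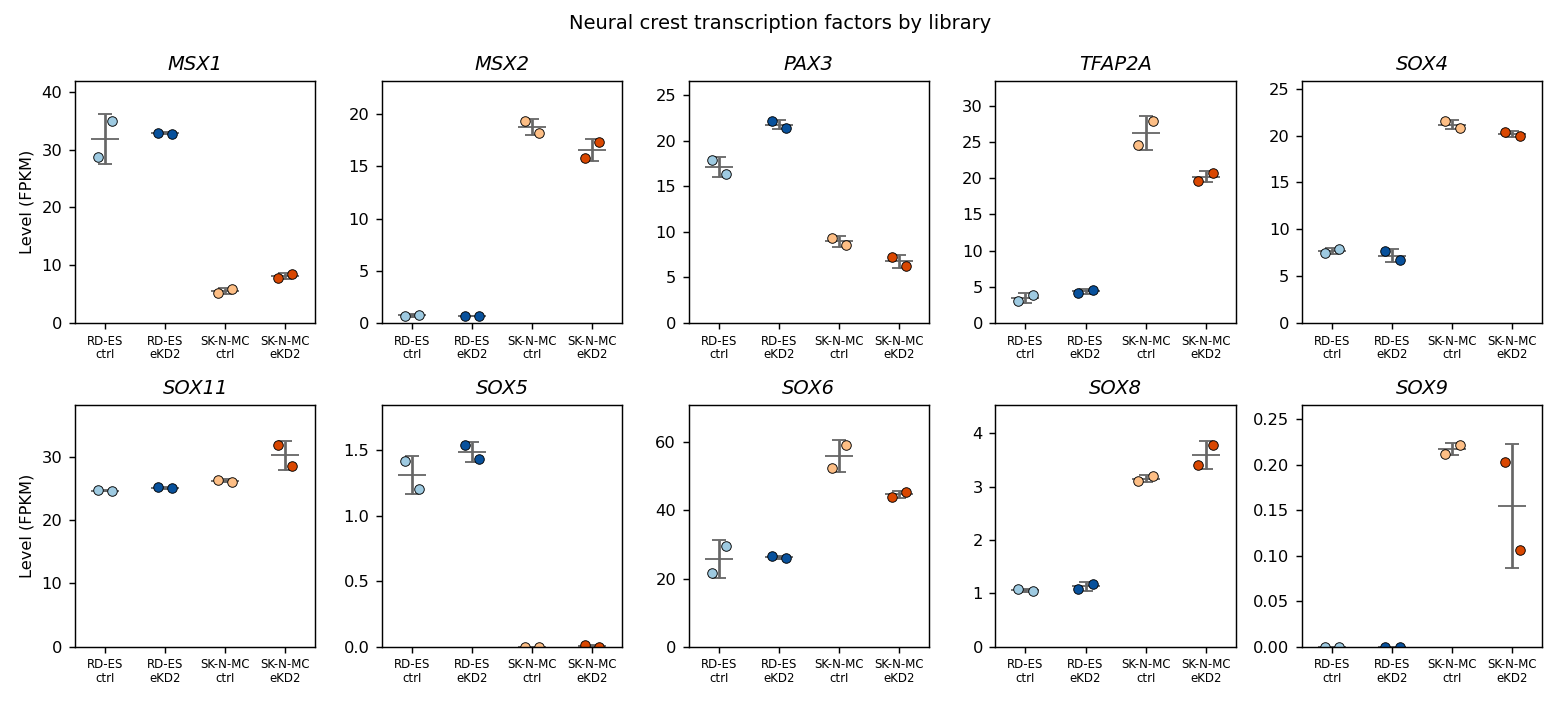
Level in FPKM (linear axis from 0, its own scale in each panel) of the 10 genes in the 8 libraries; points are libraries (n = 2 per group), horizontal bars are group means and error bars are SD. MSX2 is at most 0.792 FPKM in the RD-ES libraries and at least 15.9 FPKM in the SK-N-MC libraries, MSX1 has the opposite order, and SOX11 lies between 24.6 and 31.9 FPKM in all of them.

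To ask whether the lines differ in this program, SK-N-MC control was compared with RD-ES control as log2(FPKM + 1) for the 15175 rows with a mean of at least 1 FPKM, in a limma fit of the 4 groups with Benjamini-Hochberg adjustment over all rows. Of the 8 members tested, 5 were higher in SK-N-MC (MSX2, TFAP2A, SOX4, SOX6 and SOX8), 2 were lower (MSX1 and PAX3) and SOX11 did not pass. Over all rows, 57.8% were called in this comparison, and the count of members is to be read against that share. The median size of the difference was 1.23 on the log2 scale for the 8 members and 0.57 for all rows. These medians are a description only. The members were chosen with earlier results of these data known. MSX2 was under 1 FPKM in every RD-ES library and passed the filter through SK-N-MC. The scale also understates differences of low rows. In a bulk library fewer cells that express a gene and less RNA per cell cannot be told apart. Whether the difference was there again in other libraries was read from SK-N-MC eKD2 against RD-ES eKD2, which shares no library with the control comparison, although the spread is estimated in 1 fit. All 8 members passed there, 6 higher and 2 lower in SK-N-MC, against 56.3% of all rows.

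Of the 8 members, MSX2 had the largest difference towards SK-N-MC and MSX1 the largest towards RD-ES. Both encode homeobox repressors that respond to BMP signals. MSX2 was at 0.643 and 0.792 FPKM (control) and 0.675 and 0.641 FPKM (eKD2) in RD-ES, against 19.3 and 18.2 FPKM (control) and 15.9 and 17.3 FPKM (eKD2) in SK-N-MC. The lines did not overlap, and the mean of the control libraries was 26.2-fold higher in SK-N-MC (log2 difference 3.53, 95% interval 3.27 to 3.79, limma adjusted p = 6.7e-06). MSX1 was at 28.7 and 34.9 FPKM in RD-ES control, with 33.0 and 32.7 after the knockdown. In SK-N-MC it was at 5.12 and 5.89 FPKM in control and 7.71 and 8.53 in eKD2. It was 5.78-fold lower in SK-N-MC control (log2 difference -2.33, 95% interval -2.62 to -2.04, limma adjusted p = 3.7e-05). With these opposite patterns, MSX1 made up 97.8% ± 0.0218 of the summed MSX1 and MSX2 level in the RD-ES control libraries and 22.7% ± 2.44 in those of SK-N-MC (SD, n = 2), while the sum itself was 32.5 ± 4.46 and 24.3 ± 0.220 FPKM.

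TFAP2A, an AP-2 factor that helps to open crest enhancers, was at 2.98 and 3.90 FPKM in RD-ES control, with 4.11 and 4.59 after the knockdown. In SK-N-MC it reached 24.6 and 27.9 FPKM in control and 19.7 and 20.7 in eKD2, so that every SK-N-MC library was above every RD-ES library. The control means differed 7.63-fold (log2 difference 2.62, limma adjusted p = 3.4e-05) and the eKD2 means 4.64-fold (1.99, adjusted p = 9.1e-05). PAX3, a paired box factor of the dorsal neural tube and crest, showed the reverse. It was at 17.9 and 16.4 FPKM (control) and 22.1 and 21.4 FPKM (eKD2) in RD-ES, against 9.37 and 8.51 FPKM (control) and 7.24 and 6.25 FPKM (eKD2) in SK-N-MC. Its mean was 1.92-fold lower in SK-N-MC control (log2 difference -0.87, limma adjusted p = 0.00074) and 3.23-fold lower in SK-N-MC eKD2 (-1.56, adjusted p = 8.7e-05).

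The close paralogs of both were measured as well, and in each line they exceeded the factor itself in the control libraries. PAX7 had a mean of 31.3 FPKM in RD-ES control and 47.3 in SK-N-MC control, so PAX3 supplied 35.4% ± 3.20 (RD-ES) and 15.9% ± 1.09 (SK-N-MC) of the summed PAX3 and PAX7 level (SD, n = 2). TFAP2B was at 9.46 FPKM (RD-ES) and 102 FPKM (SK-N-MC) in the control libraries (log2 difference 3.30, limma adjusted p = 7.9e-06), in the same direction as TFAP2A, and TFAP2A supplied 26.5% ± 2.20 and 20.4% ± 1.64 of their sum. The TFAP2A value has a limit of its own. The gene shares 438 exonic bases with the antisense gene TFAP2A-AS1, which was listed between 0.308 and 2.05 FPKM, and 941 with TFAP2A-AS2, and the library kit does not mark strand, so reads in those stretches cannot be assigned to one of them.

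**Figure D2:**
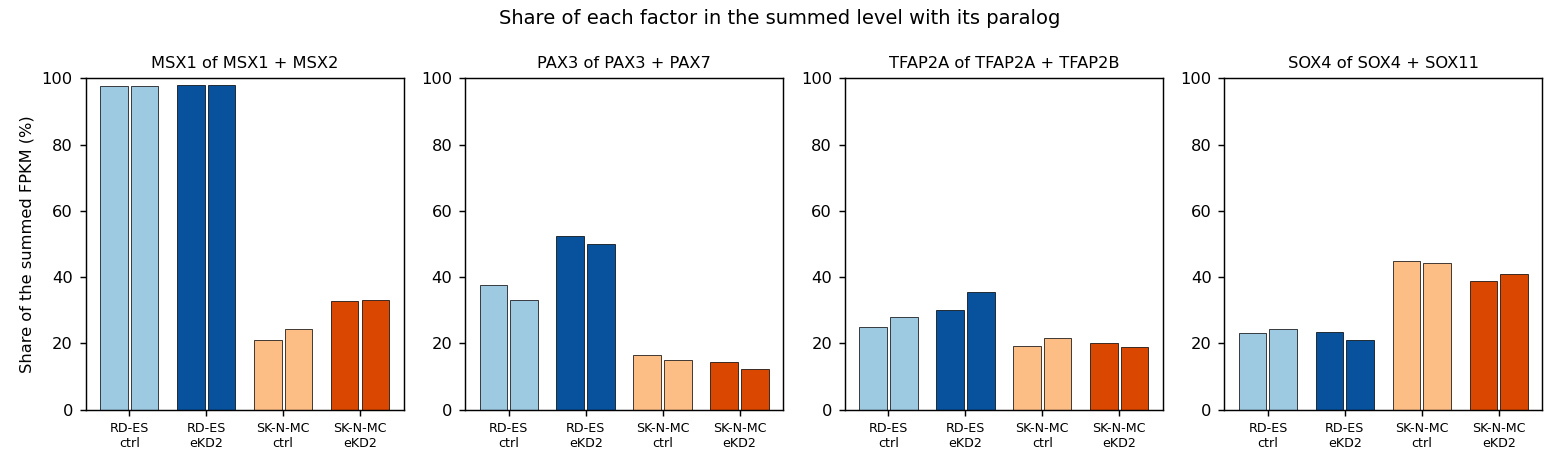
Share in percent of the first gene in the summed FPKM of a pair, for MSX1 with MSX2, PAX3 with PAX7, TFAP2A with TFAP2B and SOX4 with SOX11; each bar is 1 library (2 per group) and the axis runs from 0 to 100. MSX1 supplies about 98.0% in the RD-ES eKD2 libraries and 32.9% in the SK-N-MC eKD2 libraries, and PAX3 goes from 35.4% in RD-ES control to 51.3% in RD-ES eKD2.

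Within the SOXC group, SOX4 and SOX11 behaved differently between the lines. SOX4 was at 7.44 and 7.90 FPKM (control) and 7.67 and 6.71 FPKM (eKD2) in RD-ES, against 21.5 and 20.8 FPKM (control) and 20.4 and 19.9 FPKM (eKD2) in SK-N-MC. The lines were clearly apart (2.76-fold in control, log2 difference 1.36, limma adjusted p = 8.4e-05, and 1.37 with adjusted p = 8.7e-05 in eKD2). SOX11 was at 24.7 and 24.6 FPKM (control) and 25.2 and 25.0 FPKM (eKD2) in RD-ES, against 26.4 and 26.0 FPKM (control) and 31.9 and 28.6 FPKM (eKD2) in SK-N-MC. The control libraries of the lines differed by 0.08 on the log2 scale (95% interval -0.10 to 0.27, limma adjusted p = 0.38), a difference that turned to -0.06 when each library was scaled to the same median. The eKD2 libraries differed by 0.26 (adjusted p = 0.03), which was past the threshold only narrowly, since without SK-N-MC eKD2 replicate 1 the difference was 0.18 (adjusted p = 0.098) and without either RD-ES eKD2 library or either SK-N-MC control library the adjusted p lay between 0.05 and 0.079. SOX4 supplied 23.7% ± 0.835 of the SOX4 and SOX11 sum in the RD-ES controls and 44.7% ± 0.333 in SK-N-MC control (SD, n = 2). Both genes share a few exonic bases with a long noncoding RNA that has no row in the table (168 bases for SOX4 on the other strand and 74 for SOX11 on its own strand).

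The SOXD genes split by line. SOX6 was at 21.7 and 29.7 FPKM (control) and 26.5 and 26.0 FPKM (eKD2) in RD-ES, against 52.6 and 59.2 FPKM (control) and 44.1 and 45.6 FPKM (eKD2) in SK-N-MC. It was 2.17-fold higher in SK-N-MC control (log2 difference 1.11, limma adjusted p = 0.0012) and 1.71-fold higher in SK-N-MC eKD2 (0.75, adjusted p = 0.0061). SOX5, its partner, was at 1.42 and 1.21 FPKM in RD-ES control, with 1.54 and 1.43 after the knockdown. In SK-N-MC it was listed at 0 in 3 libraries and at 0.0111 FPKM in the other, eKD2 replicate 1. The mean of SOX5 over the 8 libraries was under the filter of 1 FPKM, and in a fit of all 31445 rows with any value it was lower in SK-N-MC control by 1.21 on the log2 scale (limma adjusted p = 0.00047).

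Of the SOXE group, only SOX8 passed the filter. SOX8 was at 1.08 and 1.04 FPKM (control) and 1.07 and 1.18 FPKM (eKD2) in RD-ES, against 3.10 and 3.20 FPKM (control) and 3.40 and 3.78 FPKM (eKD2) in SK-N-MC. It was 2.98-fold higher in SK-N-MC control (log2 difference 1.01, limma adjusted p = 0.0013) and 3.18-fold higher in SK-N-MC eKD2 (1.11, adjusted p = 0.00092). SOX9 was listed at 0 in the 4 RD-ES libraries and at 0.212, 0.222, 0.203 and 0.107 FPKM in SK-N-MC control 1 and 2 and eKD2 1 and 2. In the fit without a filter the SOX9 difference was 0.28 between the control libraries and 0.21 between the eKD2 libraries (limma adjusted p = 0.0066 and 0.02), at a level of a fraction of 1 FPKM. SOX10, the third gene of the group, was listed at 0 in all 8 libraries.

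**Figure D3:**
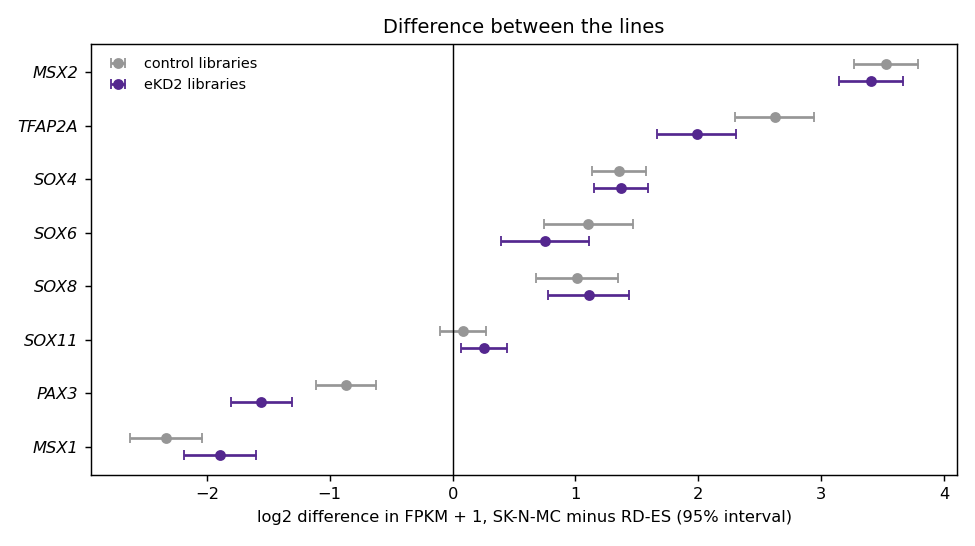
Difference between the lines (SK-N-MC minus RD-ES, log2 of FPKM + 1, with 95% limma intervals) for the 8 members tested, in control libraries (grey) and in eKD2 libraries (purple). MSX2 and TFAP2A lie farthest to the right and MSX1 farthest to the left in both; the SOX11 interval includes 0 in the control libraries, where its direction flips with median scaling.

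To ask whether silencing of the LOXHD1 enhancer changed the factors, eKD2 was compared with control within each line. None of the 8 members passed the adjusted threshold in RD-ES, where 0.343% of all rows did, in SK-N-MC, where 0.323% did, or for the difference between the lines in the change, where 0.244% did (limma). At an unadjusted p under 0.05 there was 1 member in RD-ES (PAX3) against 12.3% of all rows, 4 in SK-N-MC (MSX1, PAX3, TFAP2A and SOX11) against 13.0%, and 3 for the difference in change (PAX3, TFAP2A and MSX1) against 13.5%. In SK-N-MC the eKD2 and control libraries did not overlap for any of the 8 members, where 47.3% of all rows did not overlap, and in RD-ES this was so for 3 (SOX11, PAX3 and TFAP2A) against 39.3%. With 2 libraries a group an exact permutation test allows no two-sided p under 0.333. Taking the 95% intervals of the 8 members together, the changes lay within -0.32 and 0.60 on the log2 scale in RD-ES and within -0.68 and 0.78 in SK-N-MC. On the scale of FPKM + 1 this leaves room in single members for rises of up to 1.51-fold (RD-ES) and 1.72-fold (SK-N-MC). It also leaves room for falls of up to 1.24-fold (RD-ES) and 1.60-fold (SK-N-MC). The median absolute change of the members was 0.05 (RD-ES) and 0.25 (SK-N-MC), against 0.14 in both lines for all rows.

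PAX3 had values on opposite sides of control in the 2 lines. Both RD-ES eKD2 libraries (22.1 and 21.4 FPKM) were above both control libraries (17.9 and 16.4), with a mean 27.1% higher (log2 change 0.33, 95% interval 0.08 to 0.58, limma adjusted p = 0.29). Both SK-N-MC eKD2 libraries (7.24 and 6.25 FPKM) were below both control libraries (9.37 and 8.51), with a log2 change of -0.36 (95% interval -0.61 to -0.11, limma adjusted p = 0.25). Taken as SK-N-MC minus RD-ES, the changes of PAX3 differed by -0.69 (95% interval -1.04 to -0.34, limma adjusted p = 0.18), the lowest adjusted p of any member in the 3 knockdown comparisons, and this difference stayed between -0.78 and -0.52 under all alternatives run, with an adjusted p of 0.16 to 0.39.

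TFAP2A followed the same layout. In RD-ES the eKD2 libraries (4.11 and 4.59 FPKM) lay above the control libraries (2.98 and 3.90), with a log2 change of 0.28 (limma adjusted p = 0.46). They lay below in SK-N-MC (19.7 and 20.7 against 24.6 and 27.9 FPKM), with a log2 change of -0.36 (limma adjusted p = 0.34). The difference in change was -0.63 (95% interval -1.09 to -0.18, limma adjusted p = 0.26). For MSX1 the SK-N-MC eKD2 libraries were 47.4% above control (7.71 and 8.53 against 5.12 and 5.89 FPKM, log2 change 0.49, limma adjusted p = 0.21), whereas in RD-ES the 2 eKD2 libraries (33.0 and 32.7 FPKM) fell between the 2 control libraries (28.7 and 34.9). MSX2 in SK-N-MC went the other way (15.9 and 17.3 against 19.3 and 18.2 FPKM, log2 change -0.17, limma adjusted p = 0.55). The MSX1 share of the summed MSX level was thus 21.0% and 24.4% in SK-N-MC control and 32.7% and 33.0% in SK-N-MC eKD2, with sums of 24.3 ± 0.220 and 24.7 ± 1.62 FPKM (SD, n = 2).

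**Figure D4:**
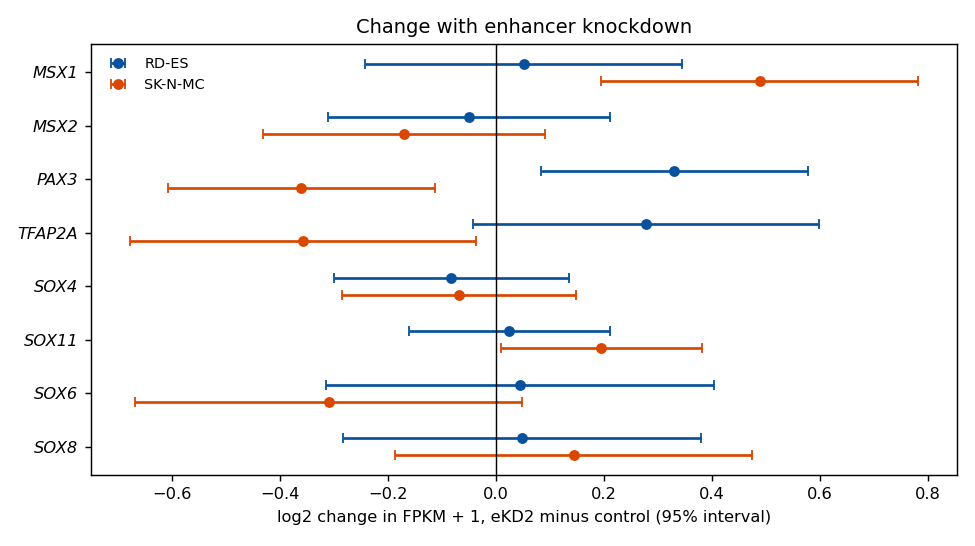
Change with the enhancer knockdown (eKD2 minus control, log2 of FPKM + 1, with 95% limma intervals) for the 8 members tested, in RD-ES (blue) and SK-N-MC (orange). PAX3 and TFAP2A lie right of 0 in RD-ES and left of 0 in SK-N-MC; no adjusted p is under 0.05, and the small RD-ES values of SOX6, SOX8, SOX11 and MSX1 turn negative under at least 1 of the 2 other scalings.

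Among the SOX genes, SOX11 lay above control in both SK-N-MC eKD2 libraries (31.9 and 28.6 against 26.4 and 26.0 FPKM, log2 change 0.19, limma adjusted p = 0.37) and its log2 change in RD-ES was 0.02. SOX6 lay below control in both SK-N-MC eKD2 libraries (44.1 and 45.6 against 52.6 and 59.2 FPKM, log2 change -0.31, 95% interval -0.67 to 0.05, limma adjusted p = 0.45), while the RD-ES eKD2 libraries lay between the 2 widely spaced control libraries. SOX4 had log2 changes of -0.08 (RD-ES) and -0.07 (SK-N-MC) and SOX8 of 0.05 and 0.14, with limma adjusted p from 0.73 to 0.93. For SOX5 the 2 RD-ES eKD2 libraries were above the 2 control libraries by 0.11 on the log2 scale in the fit without a filter (limma adjusted p = 0.73). In RD-ES, scaling each library to the same median turned the sign for SOX6, SOX11 and MSX1, and quantile normalization turned it for SOX8 and SOX11, so no direction is given for these 4 genes there. By the steps between low FPKM values, RD-ES eKD2 replicate 1 was the shallowest library. The other RD-ES libraries were roughly 1.72 to 2.2 times as deep and the SK-N-MC libraries 1.79 to 4 times. The part of depth in these values, and in the low SOX9 values that differed between the lines, was not tested.

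The wider neural crest network was read in the same comparisons. Of 40 other neural crest factors 30 were tested, and none was called with eKD2 in either line (for all rows the share was 0.343% with RD-ES, 0.323% with SK-N-MC), whereas 16 were higher and 7 lower in SK-N-MC control than in RD-ES control (57.8% of all rows called). Beside TFAP2B, the higher ones included TWIST1, a bHLH factor of migrating crest (20.3 against 123 FPKM, log2 difference 2.55, limma adjusted p = 5.7e-06), the zinc finger gene ZIC1 (0.638 against 11.5 FPKM) and SNAI2 (0.261 against 4.83 FPKM). The others included ID1, ID2, ID3 and ID4, genes of inhibitory HLH factors, with ZIC2, ZIC5, NR2F1, LMO4, MITF, ALX4 and PAX7. The lower ones were led by ETS1 (9.95 against 0.791 FPKM, log2 difference -2.62, limma adjusted p = 2.8e-05) and included DLX6, MYCN, NR2F2, ALX1 and DLX5. ZIC1, SNAI2, ETS1 and DLX6 had control means under 1 FPKM in 1 line and passed the filter through the other. Between the eKD2 libraries of the lines FOXD3 and DLX2 also passed as lower and SNAI1 as higher in SK-N-MC. ID3 did not pass there (log2 difference -0.0025, limma adjusted p = 0.98). Over the 30 factors the median difference was 0.42 and its median size 0.87, against 0.06 and 0.57 for all rows. This list too was chosen with earlier results known, so the medians are a description. The lowest adjusted p with eKD2 among them were in RD-ES, where TWIST1 went from 20.3 to 14.4 FPKM (log2 change -0.47, limma adjusted p = 0.089) and PAX7 from 31.3 to 20.7 FPKM (-0.57, adjusted p = 0.086). PAX7 thus had a lower value where PAX3 had a higher one, and PAX3 made up 52.4% and 50.1% of their sum in the RD-ES eKD2 libraries against 37.7% and 33.2% in control.

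**Figure D5:**
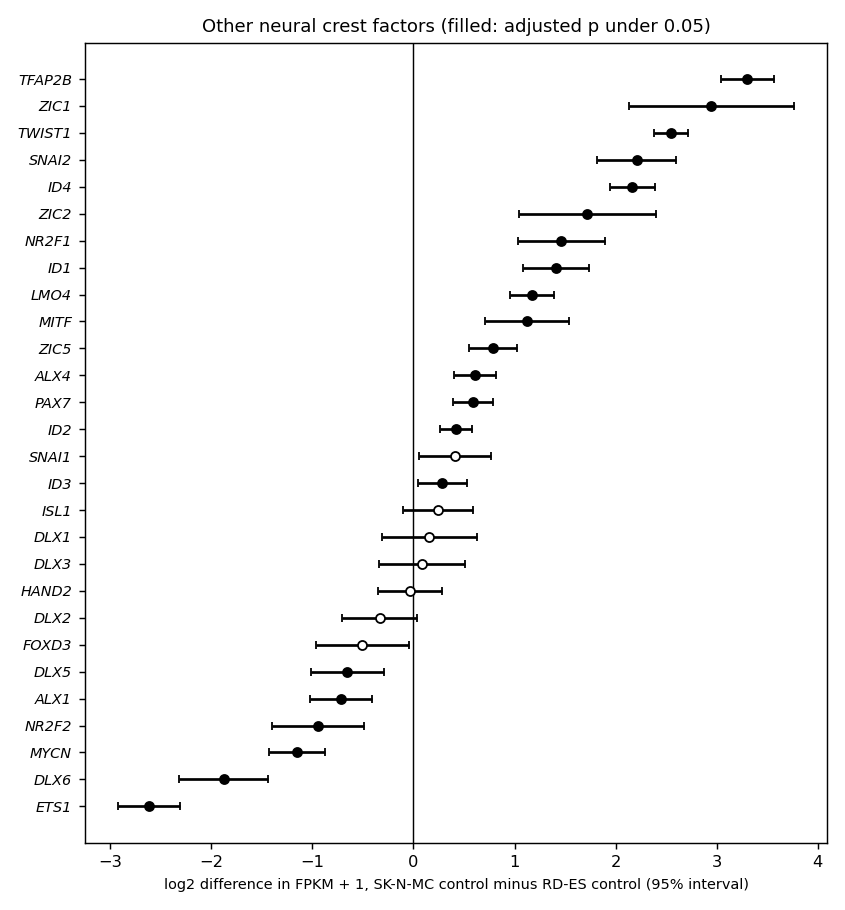
Difference between SK-N-MC control and RD-ES control (log2 of FPKM + 1, with 95% limma intervals) for 28 of the other neural crest factors tested; filled points have an adjusted p under 0.05. The points run from TFAP2B at 3.30 to ETS1 at -2.62, with 15 filled points on the right and 6 on the left.

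Among 13 other SOX genes, 5 were tested. SOX2, a factor of neural progenitors, was the most abundant (36.4 against 53.2 FPKM in the control libraries, log2 difference 0.54, limma adjusted p = 0.0015), and SOX13, the remaining SOXD gene, was also higher in SK-N-MC (4.58 against 8.88 FPKM, adjusted p = 0.0048). SOX1 was the counterpart, with 9.70 FPKM for RD-ES control and 0.0143 for SK-N-MC control (adjusted p = 1.7e-05, limma), and SOX18 was listed at 0 in RD-ES and had a mean of 4.02 FPKM in SK-N-MC control. SOX1 and SOX18 passed the filter through the line where they were high. SOX12, the last SOXC gene, was at 16.2 and 17.9 FPKM and did not pass (limma adjusted p = 0.32). None of the 5 was called with eKD2.

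Of 26 genes of BMP, FGF, WNT and Notch signalling at the neural plate border, ligands, receptors, antagonists and a target together, 17 were tested. In SK-N-MC control 11 of them were higher and 3 lower than in RD-ES control, against 57.8% of all rows called, and none was called with eKD2. The ligand genes BMP6 (0.687 against 11.5 FPKM in the control libraries, limma adjusted p = 1.4e-05) and BMP2 (1.26 against 8.44 FPKM, adjusted p = 0.00013) were among the higher ones, as were the receptor genes BMPR2 (9.11 against 23.2 FPKM) and FGFR1 (88.2 against 159 FPKM). ACVR1, FZD3 and FZD7, the Notch ligand gene JAG1 and the Notch target HES1 were higher too, and the receptor genes LRP6 and BMPR1A were lower. The BMP antagonist genes did not go one way. NOG had means of 0.256 and 2.70 FPKM in the control libraries (limma adjusted p = 0.0014) and CHRD 0.496 and 1.53 FPKM (adjusted p = 0.047), both higher in SK-N-MC, whereas GREM1 had a mean of 5.39 FPKM in RD-ES control and was listed at 0 in SK-N-MC control. BMP6, NOG, CHRD and GREM1 passed the filter through the line where they were high. Between the eKD2 libraries of the lines 9 of the 17 were called higher and 2 lower in SK-N-MC, against 56.3% of all rows. CHRD, FZD3 and BMPR1A did not pass there (limma adjusted p = 0.26, 0.22 and 0.056). With eKD2 the most different value on the log2 scale was that of JAG1 in RD-ES, at 0.749 FPKM in control and 2.30 in eKD2 (limma adjusted p = 0.13). WNT1 and WNT3A, classical inducers of the crest, were listed at 0 in the control libraries of both lines. Of 12 cartilage genes, among them targets of SOX9, SOX5 and SOX6, 5 were tested, and 4 were lower and 1 higher in SK-N-MC, beside the same 57.8% of all rows. COL11A1 went from 22.1 FPKM in RD-ES control to 0.0182 in SK-N-MC control (limma adjusted p = 5.7e-06), HAPLN1 from 26.6 to 0.336 FPKM (adjusted p = 1.7e-05) and COL9A2 from 16.9 to 2.01 FPKM (adjusted p = 5.8e-05), and COL11A2 was lower as well (4.55 against 0.933 FPKM), whereas COL9A3 went from 9.85 to 26.0 FPKM (adjusted p = 0.00088). COL11A1 and HAPLN1 passed the filter through RD-ES. COL2A1 and ACAN, the classical products of cartilage cells, did not pass the filter. Of 12 surface genes of crest cells 7 were tested, and 3 were higher and 2 lower in SK-N-MC, a share of calls that is to be read against the 57.8% of all rows. The cadherin gene CDH11 had means of 37.8 and 278 FPKM in the control libraries (limma adjusted p = 6.6e-06), and NGFR, the receptor gene often used to sort crest cells, had 47.3 and 36.2 FPKM (adjusted p = 0.017). EDNRA and KIT were the others that were higher, and CDH6 was lower. Between the eKD2 libraries of the lines NGFR had means of 37.9 FPKM (RD-ES) and 35.5 FPKM (SK-N-MC). It did not pass there (log2 difference -0.09, limma adjusted p = 0.43). None of the cartilage or surface genes was called with eKD2.

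The genes whose pattern was most like that of a member were sought by Pearson's r of log2(FPKM + 1) over the 8 libraries among 11001 rows with a mean of at least 5 FPKM. The values come from 2 lines with 4 libraries each, so a gene that only differs between the lines already gives a high r, and r is given as a description. For MSX2 the closest were ABTB2 and SHISA9 (r = 0.9996 and 0.9995), and for SOX4 they were TMEM71 (r = 0.999) and TRERF1 (r = 0.999). MSX1 was closest to SLC25A4 (r = 0.999) and MRPL11 (r = 0.998) and TFAP2A to ZNF703 (r = 0.999) and NRN1 (r = 0.998), and NUDT14 was among the closest to SOX8 (r = 0.998). PAX3 was closest to TXLNG (r = 0.996) and NOC3L (r = 0.996) and SOX6 to TCF19 (r = 0.995) and MBNL1 (r = 0.992). SOX11, the member with the least difference between the lines, had the lowest best values, with ZNF449 (r = 0.973) and FAM3C (r = 0.967).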

How the data were processed

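RNA of 8 libraries (RD-ES and SK-N-MC, control and eKD2, 2 each) was sequenced by the authors with TruSeq RNA v2 on a NextSeq500 (single-end reads of 75 bases), aligned with STAR to GRCh37 and summarised with cuffnorm. The deposited values are FPKM per gene, as the authors computed them; read counts were not used here, so the count test of the study was not repeated. Read numbers are unknown from these values, and relative depth was estimated roughly from the steps between low values. Groups follow the labels. Values were compared as log2(FPKM + 1), a scale that understates the change of low genes, with limma 3.58.1 (R 4.3.3, lmFit and eBayes with trend, two-sided) in 1 fit of the 4 groups, for rows whose mean reached 1 FPKM and with Benjamini-Hochberg adjustment at 0.05 over all rows. A row low in 1 line could reach the filter through the other, and for such rows the filter favours a call between the lines. The fit was tested on simulated data. The 10 members, the context lists and the markers were chosen with earlier results of these data known. The text names all members, LOXHD1, and from each context list genes under the adjusted threshold in any comparison or among the 2 largest changes of a comparison; some genes among the 2 largest changes that did not pass are left unnamed; genes that did not pass the filter were added as values after their levels were seen, as were the paralog shares. SOX5 and SOX9 were under the filter and are given from a fit without it. Exon overlaps came from GENCODE 44 lifted to GRCh37. The 2 same-numbered libraries of a line did not deviate together (correlation over the rows tested of 0.056 for RD-ES and 0.027 for SK-N-MC), so the numbers were not taken as pairs. Alternatives changed the pseudocount (0.1 and 5), the filter, the scaling, the variance model, the samples in the fit, the replicate block and each library in turn. Of the genes that the naming rule gives, 2 of the other neural crest factors, kept in the counts, and 1 of the genes nearest in pattern are not reported here.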

Additional observations from a re-analysis of the deposited data

How the results depend on the processing

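The number of members called with eKD2 stayed at 0 in RD-ES, in SK-N-MC and for the difference in change under every alternative run, which included the replicate block by library number (0 called in each, against 11 and 5 rows of the whole table in RD-ES and SK-N-MC, where 52 and 49 were called without it). The calls between the control libraries stayed at 7 of 8 except without a filter (9 of 10) and with a filter at 5 FPKM (6 of 7), and between the eKD2 libraries they were 7 or 8 of 8, or 10 of 10 and 7 of 7 with those filters. The replicate block changed no call of a member. The eKD2 calls over all rows depend on the choices, from 1 (each line fitted alone) to 79 (no filter) in RD-ES, from 5 to 118 in SK-N-MC and from 7 to 81 for the difference in change. Of the log2 changes of single members under the alternatives, 645 kept direction and side of the threshold, 7 lost the call, all of SOX11 between the eKD2 libraries (0.19 with adjusted p = 0.11 under median scaling and 0.26 with 0.089 when the eKD2 libraries were fitted alone, beside the left-out libraries given above), and 15 changed sign, none of them called. These were, in RD-ES eKD2 against control, SOX6 at -0.026, SOX11 at -0.045 and MSX1 at -0.019 under median scaling and SOX8 at -0.0032 and SOX11 at -0.019 under quantile normalization. SOX4 in the difference in change came to -0.0023 with a pseudocount of 5, and SOX11 between the control libraries to -0.058 under median scaling. Leaving out each library in turn gave ranges of -0.17 to 0.0014 for SOX4, -0.17 to 0.26 for SOX6, -0.085 to 0.19 for MSX1 and -0.11 to 0.013 for MSX2 in RD-ES, and -0.070 to 0.099 for SOX4 in the difference in change. Median scaling moved the median of all rows between the control libraries from 0.065 to -0.042, a shift of -0.107, and no other scaling moved it by more than 0.1 in any comparison. The cause of these changes was not tested. With 2 libraries a group and an unknown read number, the 95% intervals of the knockdown changes of single members reached 1.72-fold.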
